A study of Scophthalmus maximus with 8 samples.

Results

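The regions described here held a called peak only in turbot (*Scophthalmus maximus*) larvae at 15dph, the pre-metamorphic stage, among 4 developmental stages profiled by ATAC-seq. Open at a stage means below that a peak was called in the list of that stage. Peaks of the 4 stages that overlapped by at least 1 bp were joined into regions, and a region was taken when it held a peak of the 15dph list and none of the other lists. There were 5649 such 15dph-only regions among the 114193 regions of the whole atlas. They were 10.0% of the 56299 regions with a 15dph peak (95% Wilson interval 9.79 to 10.3%). The number found by this rule depended on the peak threshold. It was 2718 when all lists were held to a global IDR (the estimated rate of irreproducible peaks) of at most 0.01. It was 1792 with the top 50% of each list. Only 822 of those 2718 regions and 146 of those 1792 were among the 5649. The number also moved with the joining rule. It was 7559 when sharing required an overlap of 50% of both peaks, and 4069 with peaks up to 500 bp apart joined. The 5649 regions were chosen by the presence and absence of called peaks. Their number and the strength of their peaks are therefore given as a description.

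The 8 samples were 2 biological replicates each of the phylotypic embryo (3dpf, 3 days after fertilization), the pre-metamorphic larva (15dph, 15 days after hatching), the larva at the climax of metamorphosis (23dph) and the post-metamorphic juvenile (37dph). All came from turbot with no treatment or genotype named in the labels. Whole animals were taken at 3dpf, while for the older fish (15dph, 23dph, 37dph) the hind part of the body, measured from the cloaca, had been discarded, so that stage and material change together between 3dpf and the rest. The paper also reports a longer enzyme digestion into single cells at each later stage, so digestion time changes with stage throughout. Each stage has 1 list of peaks reproducible between its replicates, and these hold 94714 (3dpf), 57611 (15dph), 47853 (23dph) and 46248 (37dph) peaks. The list taken for 23dph carries another day number in its name and was assigned by the samples' description, so each 15dph-only call and each 23dph value rests on that. The lists give no depth and no value per replicate. Hence no difference between stages could be tested, and the intervals below cover counting error only. A region without a peak in a list did not pass the authors' limit at that stage, which is not the same as closed chromatin.

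In ATAC-seq the transposase Tn5 cuts DNA that is free of nucleosomes, and places with many cuts are called as peaks, many of which are promoters or enhancers. Promoters of genes used by most cells tend to stay open through life, whereas many enhancers are open in certain cell types or at certain times. At metamorphosis, under the control of thyroid hormone, a flatfish's eye moves across the head and the fish settles on the sea floor. The 15dph larva still has an eye on each side and swims upright. Since the samples are mixtures of many cell types, a region open in few cells and a region weakly open in all cells cannot be told apart.

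Each 15dph-only region held exactly 1 peak, so its borders are those of that peak. The peaks were weak within their own list. Their median fold enrichment over the local background was 3.38 (interquartile range 3.11 to 3.69, highest 6.19), against 4.53 for the other 51962 peaks at 15dph. Their median −log10 p, the strength given by the peak caller, was 10.6 (range 2.29 to 29.7), against 19.5 for the others. By this measure 5503 of the 5649 (97.4%) lay in the weaker 50% of the list and 146 in the stronger 50%. No member was among the 11522 peaks of deciles 1 and 2 (decile 1 being the strongest). A count of 3, set as the limit for a count of 0, would be 0.026% of these peaks. In decile 3 there were 6 members and in decile 10 there were 2036, where they made up 35.3% (34.1 to 36.6%) of the peaks. The global IDR, the estimated rate of irreproducible peaks down to a given peak, was 0.045 in the median member and 0.000657 in the median of the other peaks. It was at most 0.01 in 822 members (14.6%), against 72.9% of the other peaks. The highest score was reached by 402 members (7.12%), against 64.3% of the others.

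The 10 strongest members show what such regions looked like at best. The first lay on chromosome 16 from 17310172 to 17310585 (ASM1334776v1, as all positions here). It was 414 bp wide and ranked 13630 in the 15dph list (fold enrichment 6.19, −log10 p 29.7). The nearest 3dpf peak was 3473 bp away, the nearest 23dph peak 4898 bp and the nearest 37dph peak 9846 bp. This region thus stood well apart from any peak of another stage. The second, on chromosome 11 from 12286301 to 12286562, was enriched 5.40-fold (−log10 p 28.2). It was 762 bp from a region open at all stages. The third, on chromosome 6 from 7209177 to 7209627, was enriched 5.48-fold (−log10 p 27.8), and only 68 bp separated it from a region open at all stages. This peak was a neighbour of chromatin that was open throughout.

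The fourth, on chromosome 11 from 18559461 to 18559792, had a −log10 p of 27.2 and the longest distance to always-open chromatin among the 10, 36428 bp. The fifth, on chromosome 20 from 17912522 to 17912780, had a −log10 p of 26.9 and lay 217 bp from a 3dpf peak. The seventh, on chromosome 6 from 23012711 to 23012911, had a −log10 p of 25.8 and lay 37 bp from a 3dpf peak and 53 bp from a 23dph peak. The other 4 were on chromosome 4 from 25003986 to 25004188, chromosome 12 from 7487175 to 7487441, chromosome 8 from 7037087 to 7037726 and chromosome 6 from 17732913 to 17733313. Their −log10 p lay between 24.2 and 26.4. Of the 10, 5 had a peak of another stage within 1 kb, as had 39.7% of all members. On chromosome 6 lay 3 of the 10, and 282 of all 5649 members. Widths of the 10 ran from 201 to 640 bp. The genes around these regions were not analysed here.

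Members were close to the rest of the 15dph list in width. The median was 246 bp (95% interval of the median 242 to 249, interquartile range 189 to 326), against 256 bp for the other 15dph peaks. The narrowest member was 100 bp and the widest 960 bp. Few members were broad: 229 (4.05%) reached 500 bp, against 10.6% of the other 15dph peaks. Widths and strength are linked in these lists, and the weaker 50% of the list gave another order. There the other peaks had a median of 231 bp (229 to 234), and those in regions open at all stages one of 199 bp (197 to 201). Both lay below the 246 bp of all members, 97.4% of which were in this weaker 50%.

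The comparison was then made decile by decile of −log10 p. In decile 10, the weakest, members had a median width of 229 bp (224 to 236), against 236 bp (229 to 241) for peaks shared with 1 other stage, 198 bp (189 to 205) for peaks shared with 2, and 166 bp (159 to 171) where the region was open at all stages. In decile 6 the medians were 280 bp (264 to 293) for members and 272, 254 and 205 bp for the other groups in the same order. In each of deciles 4 to 10, members were wider than all-stage peaks of like strength, with intervals that did not overlap. Against peaks shared with 1 other stage the intervals overlapped in each of these deciles. Median fold enrichment was 3.04 for members and 3.04 for the other peaks of decile 10. The peak caller takes fold enrichment and −log10 p from the same signal, so this likeness says little about members. The summit, the point of highest signal, lay at 49.6% of the width in the median member, and in 74.5% of members it fell in the middle part of the peak (33.3 to 66.7% of its width), against 78.3% of the other 15dph peaks.

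**Figure D1:**
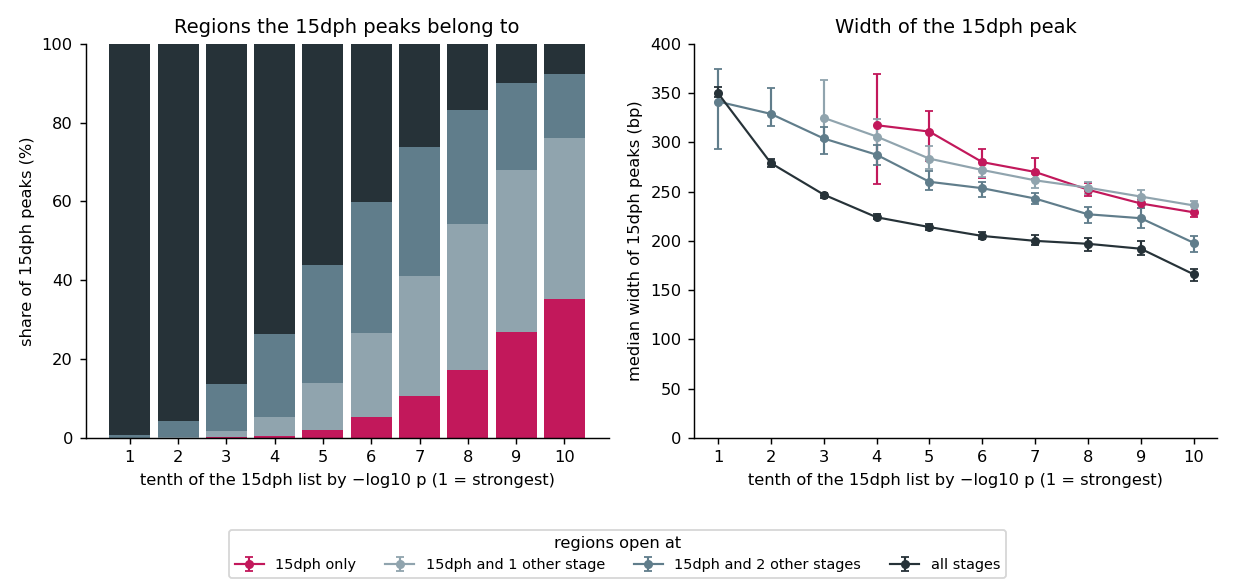
Left, share (%) of the 15dph peaks of each decile of the list by −log10 p that fell in regions open only at 15dph, at 15dph and 1 or 2 other stages, or at all stages. Right, median width (bp) of the 15dph peaks in these classes with 95% intervals of the median, for groups of at least 20 peaks. The 15dph-only share is 0 in the first 2 deciles and 35.3% in the last, and the 15dph-only peaks lie above the all-stage peaks in width wherever both are drawn.

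The 3 widest members were not strong peaks. The widest, on chromosome 13 from 21164039 to 21164998, was enriched 3.96-fold (−log10 p 13.1). At 435890 bp it was also among the 3 members farthest from always-open chromatin. The next lay on chromosome 1 from 26591814 to 26592744, 931 bp wide and 4760 bp from a region open at all stages. The last lay on chromosome 17 from 2386220 to 2387139 and was 920 bp wide (−log10 p 16.2). Among the other stage-only sets, the median width was 272 bp (271 to 273) at 3dpf, 222 bp (218 to 225) at 23dph and 179 bp (177 to 182) at 37dph. These sets were 46.4%, 6.65% and 12.1% of the regions open at their stages. Their widths, with the 246 bp of members, followed the order of the whole lists. Over all peaks of a list the median width fell from 274 bp (3dpf list) through 255 (15dph) and 238 (23dph) to 204 bp (37dph). Whether stage-only widths differ beyond this order was not tested.

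The rule rests on an overlap of 1 bp, so the gap between each member and the nearest peak of another stage was measured. The median gap was 1720 bp (1637 to 1813) to a 3dpf peak, 4598 bp (4390 to 4769) to a 23dph peak and 5350 bp (5073 to 5584) to a 37dph peak. The 3dpf list is the longest, with 94714 of the 188815 peaks of the other stages. Its peak was the closest for 4057 members (71.8%), compared with 867 for 23dph and 725 for 37dph. These counts include 57 members at equal distance to more than 1 stage, each placed with a single stage. To a peak of any other stage the median gap was 1430 bp (1373 to 1491). This value turned on the joining rule and the threshold. It was 748 bp when sharing required 50% of both peaks, 710 bp when it required summits within 100 bp, 2218 bp with peaks up to 500 bp apart joined and 2574 bp with the top 50% of each list. A peak of another stage lay within 100 bp of 438 members (7.75%), within 500 bp of 1437 (25.4%) and within 10 kb of 5413 (95.8%). The remaining 236 members (4.18%) had none within 10 kb and had a median width of 271 bp, whereas the 1437 members with a neighbour within 500 bp had a median of 219 bp. Their median −log10 p differed little, at 10.3 and 10.5. Wide peaks overlap others more readily, so the rule itself can favour narrow members at short gaps. How far it makes this difference was not tested.

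A total of 187 members had a peak of another stage within 50 bp and 15 within 10 bp. Another 15dph peak lay within 100 bp of 543 members (9.61%), and a peak of another stage within 100 bp of 438. The rule takes out any 15dph peak that overlaps a peak of another stage, whereas peaks of 1 list never overlapped. The order of these counts is therefore no result about members. Closest to the limit was a peak on chromosome 8 from 1137688 to 1137816 (fold enrichment 2.23, −log10 p 4.07). It lay 1 bp from a 3dpf peak and 1 bp from another 15dph peak. The next were on chromosome 3 from 25104470 to 25104613 and on chromosome 17 from 5884255 to 5884492, each 2 bp from a 3dpf peak. The chromosome 3 peak was also 2 bp from another 15dph peak and 58 bp from a region open at all stages. Just outside the rule was a 15dph peak on chromosome 20 from 5097337 to 5097462, which shared 1 bp with a 3dpf peak of 280 bp. The next 2, on chromosomes 1 (16172833 to 16173198) and 6 (13928314 to 13928481), shared 9 bp with a 3dpf peak and 10 bp with a 37dph peak. Such bare overlaps were rare. Of the 10557 regions made of 1 peak at 15dph and 1 at a single other stage, 13 overlapped by at most 50 bp and the median overlap was 224 bp.

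**Figure D2:**
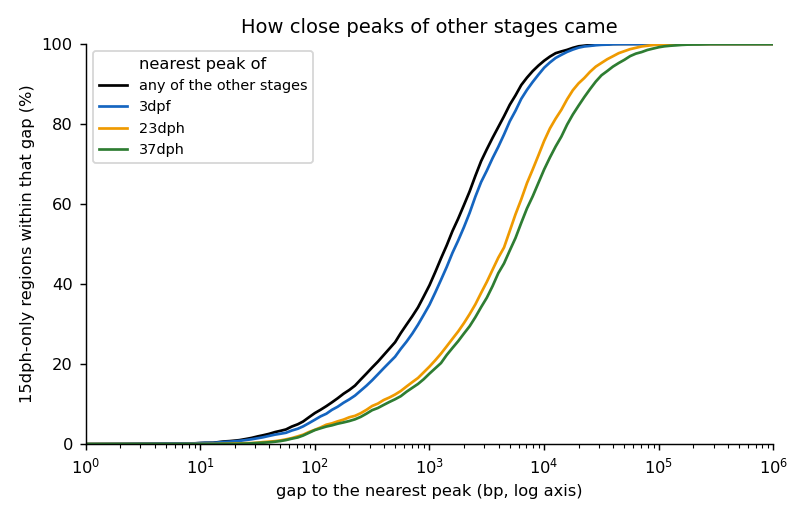
Share (%) of the 5649 15dph-only regions with a peak of another stage within a given gap (bp, log axis), for the nearest 3dpf, 23dph or 37dph peak and for any of them. Of the regions, 7.75% had such a peak within 100 bp and 95.8% within 10 kb, and the 3dpf curve lies left of the 23dph and 37dph curves.

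The distance to the nearest region open at all stages was measured edge to edge. The median was 8695 bp (8366 to 9078, interquartile range 3254 to 20791) for members. For regions open at 15dph and at 1 or 2 other stages it was 5944 bp (5823 to 6073). Members thus lay farther from always-open chromatin than this pooled set of shared regions, whose parts differed. The median was 7702 bp (7330 to 7963) for regions shared with 3dpf alone. It was 7401 bp (7016 to 7992) for regions shared with 23dph alone and 3882 bp (3542 to 4268) with 37dph alone. The first 2 of these were closer to the median of members than the pooled value was, and the last was farther from it. Among members, 686 (12.1%) lay within 1 kb, 2371 (42.0%) between 1 and 10 kb, 2131 (37.7%) between 10 and 50 kb and 461 (8.16%) farther. Members and shared regions were also compared at like strength, by the number of stages and not by which stage shared the region. In decile 10 the median was 9378 bp (8613 to 10207) for members, 7091 bp (6500 to 7723) for regions shared with 1 other stage and 4841 bp (4258 to 5544) for regions shared with 2. In decile 7 these were 9078, 6543 and 4945 bp. The intervals of members and of regions shared with 1 other stage were apart in deciles 7 to 10. They overlapped in deciles 4, 5 and 6, with 28, 112 and 309 members, and in decile 5 the member median was the lower, at 6583 bp, against 6861 bp.

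Distance and width went together among members, and those within 1 kb had the lowest median width. The 686 within 1 kb of always-open chromatin had a median width of 203 bp (194 to 216). It was 245 bp (240 to 250) for the 2371 at 1 to 10 kb, 257 bp (251 to 262) for the 2131 at 10 to 50 kb and 259 bp for the 461 beyond. A wide peak close to a region open at all stages overlaps it more readily and is then no member. How far the rule itself makes this link was not tested. By width, the narrowest quartile (100 to 189 bp) had a median distance of 6309 bp (5850 to 6859). The second had one of 8810 bp (8231 to 9522) and the third of 9438 bp (8683 to 10130). The widest (326 to 960 bp) had one of 10566 bp (9688 to 11483). Median −log10 p was 10.6 within 1 kb and 10.2 beyond 50 kb. The farthest members were a pair on chromosome 13, from 22312114 to 22312446 and from 22312463 to 22312682, separated by 16 bp and 569848 and 569612 bp from any region open at all stages. The stronger of the pair had a −log10 p of 12.7.

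The other stage-only sets were placed beside these values. The median distance was 8520 bp (8379 to 8667) for 3dpf-only, 7828 bp (7466 to 8271) for 23dph-only and 5112 bp (4890 to 5358) for 37dph-only regions. The 15dph-only median lay above the 37dph-only one also with lists of equal length (9734 and 5896 bp) and with a global IDR of at most 0.01 (9022 and 4250 bp). In the equal lists the interval of the 15dph-only median overlapped that of the 23dph-only regions (9162 bp), and the 3dpf-only median was the higher, at 11250 bp.

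**Figure D3:**
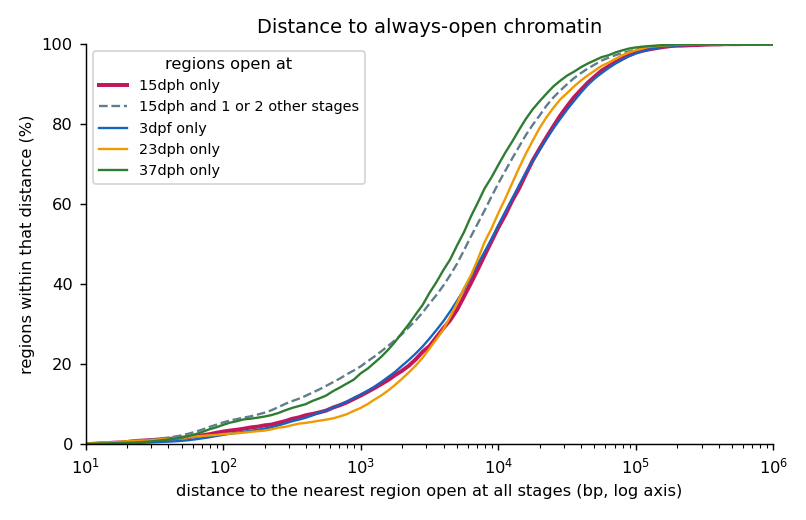
Share (%) of regions within a given distance (bp, log axis) of the nearest region open at all stages, for 15dph-only regions, regions shared by 15dph and 1 or 2 other stages, and the other stage-only sets. The medians are 8695 bp for 15dph-only, 5944 bp for the shared regions, 8520 bp for 3dpf-only, 7828 bp for 23dph-only and 5112 bp for 37dph-only regions, and the 15dph-only and 3dpf-only curves nearly coincide.

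Members were spread over every numbered chromosome. The 22 chromosomes held 5646 of them, and the last 3 lay on 1 unplaced sequence. The density was 10.4 members per Mb over the 545 Mb spanned by peaks, lowest on chromosome 22 (8.13) and highest on chromosome 10 (12.7). Counts ran from 124 on chromosome 22 to 355 on chromosome 5. As a share of the regions with a 15dph peak, chromosome 5 was the highest, with 355 of 2933 (12.1%, 10.97 to 13.3%), and chromosome 22 the lowest, with 124 of 1649 (7.52%, 6.34 to 8.89%). Chromosome 19 was next to the lowest, with 187 of 2450 (7.63%, 6.65 to 8.75%). Compared with the 10.0% of the whole list, the interval lay above it on 5 chromosomes and below it on 6. The highest share was 1.61 times the lowest. It was 3.47 times for 15dph peaks with a global IDR of at most 0.01 set against the full other lists. That set holds only 822 regions, and with fewer regions such a ratio can grow from counting error alone. Neither ratio has an interval, so they cannot be compared. Low shares on chromosomes 19 and 22 were not particular to members. Among numbered chromosomes the 3dpf-only share was lowest there too, at 41.6% and 41.8%, against 46.4% in all. The 23dph-only shares there were 5.16% and 7.09%, against 6.65%, and the 37dph-only shares 11.2% and 12.3%, against 12.1%. Chromosomes 19 and 22 also had the shortest median distances from members to always-open chromatin, 6747 and 6931 bp, and chromosome 13 the longest, 14629 bp. Chromosome 19 had the most regions open at all stages per Mb (67.1) and chromosome 13 the fewest (41.8). Median widths of members varied little between chromosomes, from 236 to 265 bp.

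**Figure D4:**
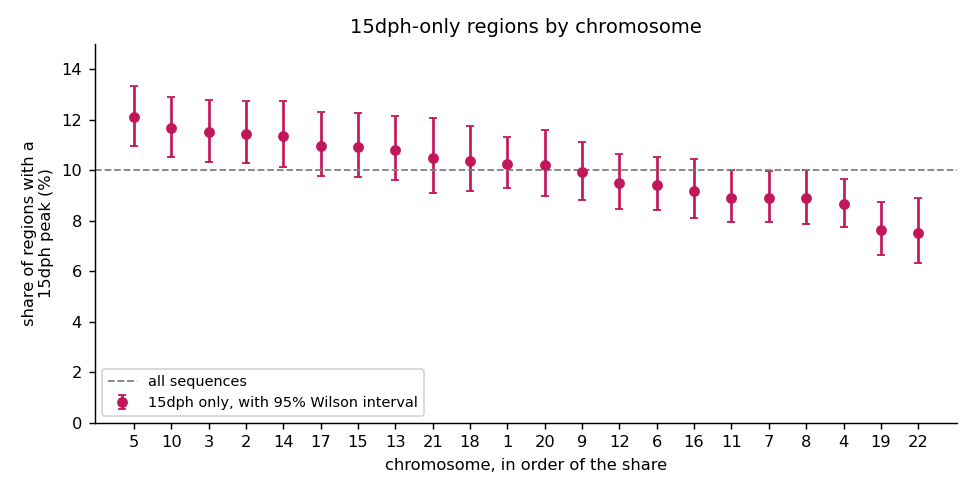
Share (%) of the regions with a 15dph peak that were open only at 15dph, for each of the 22 numbered chromosomes in order of the share, with 95% Wilson intervals and a dashed line at the share over all sequences (10.0%). The points run from 12.1% on chromosome 5 to 7.52% on chromosome 22.

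The position along the chromosomes was also measured. With each chromosome cut into 10 equal parts, the first held 500 members (8.86%, 8.14 to 9.63%), the last 474 (8.40%, 7.70 to 9.15%) and the part with most, the third, 632 (11.2%, 10.4 to 12.04%). All regions with a 15dph peak were placed alike at the ends, with 9.24% in the first part and 9.14% in the last. As a share of the 15dph regions of each part, members made up 9.62% (8.84 to 10.45%) in the first and 9.22% (8.45 to 10.04%) in the last, intervals that include the 10.0% of the whole list. This share ranged from 8.98% in the sixth part to 11.4% in the third. The sixth part held the largest share of all-stage regions, 12.4%.

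In 534 complete windows of 1 Mb, the median number of members was 10 (interquartile range 8 to 13, highest 22), and 3 windows had none. The fullest was on chromosome 6 from 17000001 to 18000000, with 22 members among 116 regions with a 15dph peak. In 4 other windows there were 21 members, on chromosome 5 from 13000001 to 14000000, chromosome 9 from 11000001 to 12000000, chromosome 11 from 10000001 to 11000000 and chromosome 15 from 5000001 to 6000000. The variance of the counts was 1.48 times their mean for 15dph-only regions, against 6.29 for 3dpf-only, 1.35 for 23dph-only and 2.82 for 37dph-only regions. This ratio can grow with the mean count, which was 10.4 for 15dph-only, 79.8 for 3dpf-only, 5.64 for 23dph-only and 9.76 for 37dph-only regions. The 15dph-only and 37dph-only sets have like means, and the members were the more evenly spread of the pair.

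The windows were then ranked by how many regions open at all stages they held and cut into quartiles, which averaged 27.4, 45.8, 58.2 and 76.8 such regions. The mean number of members was nearly level, at 9.62, 11.03, 11.1 and 9.93 from the poorest to the richest quartile. The 37dph-only regions went with always-open chromatin, at 5.18, 8.84, 11.1 and 13.9. Thus the richest windows held 1.03 times the members of the poorest, against 2.69 times for 37dph-only, 1.59 times for 23dph-only and 1.11 times for 3dpf-only regions. With lists of equal length the ratio was 1.18 for 15dph-only, against 1.02 for 3dpf-only, 1.52 for 23dph-only and 2.36 for 37dph-only regions. With a global IDR of at most 0.01 it was 1.47 for 15dph-only, against 1.12 for 3dpf-only, 2.21 for 23dph-only and 3.25 for 37dph-only regions. The 3dpf-only regions were thus more level than the 15dph-only regions in both of these settings. Of these 15dph-only regions, 2096 of 4031 with equal lists and 822 of 2718 with the IDR limit were members in the full lists. Always-open regions are part of the 15dph regions, and as a share of these the members made up 14.1% in the poorest and 7.46% in the richest quartile.

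Over the 534 windows the count of members had a Pearson r of 0.417 and a Spearman rho of 0.377 with the count of 3dpf-only regions. With all-stage regions these were 0.0933 and 0.0484, with 23dph-only regions 0.189 and 0.185, and with 37dph-only regions 0.113 and 0.116. All counts come from the same windows, and neighbouring windows are not independent, so these values only describe. Over the 22 chromosomes, members per Mb had an r of 0.464 (rho 0.564) with 3dpf-only regions per Mb and −0.434 (−0.476) with all-stage regions per Mb.

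**Figure D5:**
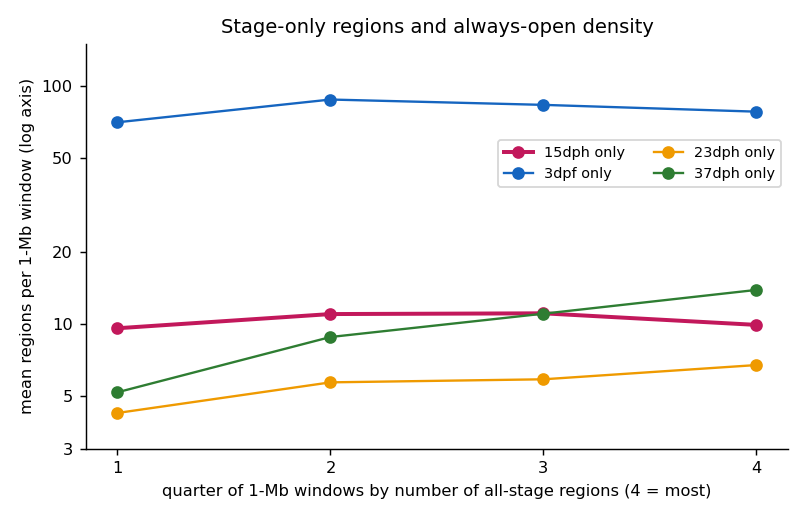
Mean number of stage-only regions per 1-Mb window (log axis) in quartiles of the 534 windows ranked by how many regions open at all stages they held. The 15dph-only line stays between 9.62 and 11.1, while the 37dph-only line climbs through 5.18, 8.84, 11.1 and 13.9.

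Most members did not stand side by side. In the atlas, 789 of them (14.0%, 13.1 to 14.9%) had another member as the next region on at least 1 side. The like share was 15.0% (14.04 to 15.95%) for the 5345 37dph-only regions, which are about as many. It was 8.43% for the 3073 23dph-only regions and 68.9% for the 43413 3dpf-only regions. Such shares can grow with the size of a set. The sets were 4.95% (15dph-only), 4.68% (37dph-only), 2.69% (23dph-only) and 38.0% (3dpf-only) of the atlas. Counted by neighbour, members were 7.40% of the neighbours of members, above their 4.95% of the atlas. This was not particular to members. The share of the own set among neighbours was 7.77% for 37dph-only, 4.36% for 23dph-only and 46.1% for 3dpf-only regions, each above its atlas share. Of the 1792 regions found with the top 50% of each list, 6.36% stood beside another of them. It was 2.80% for the 822 found from 15dph peaks with a global IDR of at most 0.01 set against the full other lists. Both sets are smaller than the 5649 members, and only 146 of the 1792 were members in the full lists. Whether these shares are low for sets of that size was not tested. Another member lay within 10 kb of 24.2% (23.1 to 25.3%) of members, and the median distance to the nearest one was 26833 bp. For 37dph-only regions these values were 27.3% (26.1 to 28.5%) and 25037 bp.

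Taking both sides of every member, 11297 neighbours were counted. Of them 836 (7.40%, 6.93 to 7.90%) were members, which make up 4.95% of the atlas. The most frequent neighbours were 3dpf-only regions, at 40.5% (39.6 to 41.4%) with an atlas share of 38.0%. Regions open at all stages were less frequent as neighbours than in the atlas, at 18.5% (17.8 to 19.2%) with an atlas share of 24.9%. Regions shared by 15dph and 23dph alone made up 2.06% (1.82 to 2.34%) of the neighbours and 1.53% of the atlas. Those shared by 3dpf and 15dph alone made up 7.47% and 6.50%. The all-stage share was low also among the neighbours of 3dpf-only (18.2%) and 23dph-only regions (20.6%), while it was 28.0% for 37dph-only regions. The share of members was 5.27%, 5.70% and 4.89% among the neighbours of 3dpf-only, 23dph-only and 37dph-only regions.

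Runs of consecutive members were short. There were 326 pairs, 43 runs of 3 and 2 runs of 4, and the other 4860 members (86.0%) stood alone. Within the pairs and runs, the median gap between consecutive members was 1634 bp (1150 to 2267), with an interquartile range of 132 to 5744 bp. In 100 of the 418 gaps the members were at most 100 bp apart.

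Both runs of 4 lay on chromosome 17. The first spanned 10138 bp from 2004988 to 2015125 and held peaks of 216, 250, 176 and 196 bp with −log10 p of 9.60, 13.2, 7.11 and 9.40. Peaks 2 and 3 of it were 98 bp apart, and the region open at all stages nearest to any of its peaks was 10113 bp away. The second run spanned 10878 bp from 2848433 to 2859310, with peaks of 418, 159, 239 and 188 bp and −log10 p of 10.6, 7.17, 9.40 and 17.6. Peaks 1 and 2 of it were 40 bp apart, and always-open chromatin began 32521 bp from its nearest peak. The first run of 3 lay on chromosome 1 from 1904460 to 1914830. Its peaks were 245, 228 and 255 bp wide and had −log10 p of 10.7, 10.3 and 13.6. None of the 11 peaks of these runs reached the −log10 p of the 10 strongest members.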

How the data were processed

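The authors made the lists from 2 replicates a stage: reads were aligned to ASM1334776v1 with Bowtie2, read starts moved to the Tn5 cut, short fragments kept, peaks called with MACS2 per replicate, and replicates joined by IDR. Each deposited peak has a fold enrichment ratio over background, a −log10 p and −log10 q value (the q was not used), a score and the −log10 of its IDR. In 100% of peaks the deposited score lay within 1 unit of 125 times −log2 of the global IDR, capped at 1000, and the highest global IDR was 0.1. Depth, which affects which peaks are called, is not given by the lists and was not corrected for.

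Peaks overlapping by at least 1 bp were joined (0 overlapped within a list). Distances are edge to edge. Shares carry Wilson intervals and medians intervals from binomial order statistics (95%). No test was run, since each stage has 1 list. Linking, distances, neighbours and runs were tested on simulated data. The rule for named regions took the 10 strongest by −log10 p, the 3 widest, the 3 farthest from all-stage regions, the 3 longest runs, the chromosomes with the extreme shares and the 3 regions on each side of the overlap limit. The windows and chromosomes 10, 13 and 19 were named after their values were seen. Members, comparisons and alternatives were chosen with earlier results of these data known. The annotation at hand is of another assembly, so genes and sequence were not analysed here. Computations used scipy 1.17.1 and numpy 2.4.6 under Python 3.11.15, with pandas 2.3.3 for tables and matplotlib 3.10.9 for plots.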

Additional observations from a re-analysis of the deposited data

How the results depend on the processing

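Values are given in the order number, share of 15dph regions, median width, share next to a member, median distance to all-stage regions, median gap to a peak of another stage and median −log10 p, leaving out values that stayed within their interval or, for the number, within 1.5 times. Overlap of at least 50% of both peaks gave a share of 13.1%, a gap of 748 bp and 10.7. Summits within 100 bp gave 13.3%, 266 bp, a gap of 710 bp and 10.7. Joining peaks up to 100 bp apart gave 9.59%, 255 bp, 11.2% and 1636 bp, and up to 500 bp apart 8.53%, 260 bp, 9.88%, 9878 bp and 2218 bp. A global IDR of at most 0.05 gave 8.78%, 255 bp, 12.97%, a gap of 1652 bp and 12.2. At most 0.01 in all lists gave 2718 regions, 7.16%, 266 bp, 11.2%, a gap of 1977 bp and 15.5. At most 0.01 at 15dph alone gave 822 regions, 2.17%, 267 bp, 2.80%, 7073 bp, 1215 bp and 14.9, and there the highest chromosome share was 3.47 times the lowest. The top 50% of each list gave 1792 regions, 6.29%, 260 bp, 6.36%, 10924 bp, 2574 bp and 20.4. The 46248 strongest peaks of each list gave 8.86%, 264 bp, 9734 bp, 2110 bp and 13.6. Counting members within 10 or 50 kb as neighbours gave 24.2% and 68.7%. Numbered chromosomes alone moved no value beyond these limits. Removing the weaker peaks fixes the direction in which strength moves. The cause of the other shifts was not tested.

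The members themselves changed with the lists. Of the 1792 regions found in the top 50% of each list, 146 (8.15%) were members in the full lists. Of the 2718 found with a global IDR of at most 0.01 in all lists, 822 (30.2%) were members, and of the 4031 found with equal lists, 2096 (52.0%). The alternatives for chromosome share, gap and strength, and those for the stage-only sets side by side, were chosen after seeing the data. No paired analysis was possible because only joint lists of both replicates were used, which also means that no replicate could be left out. Sequence and gene results were not made.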
